A study of Mus musculus with 3 samples.

Results

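The genes described are the 4 Notch receptor genes of the mouse, Notch1, Notch2, Notch3 and Notch4, and 4 genes for the nuclear proteins that receptors act through, Rbpj, Maml1, Maml2 and Maml3. They were set against a list of 3668 Atoh7 CUT&RUN peaks, and a peak was counted for a gene when its midpoint lay inside the RefSeq gene body or within 100 kb of it. By this rule 15 of the 3668 peaks belonged to the 8 genes, 5 at receptor genes and 10 at nuclear partner genes. CUT&RUN uses an antibody to bring a nuclease to a bound protein, so that the DNA beside the protein is cut free and sequenced. By the labels there were 2 Atoh7 libraries and 1 control library with IgG, all from retina of strain C57Bl6/J at embryonic day 14, with no other genotype or treatment named. They do not say how many animals were pooled. The list gives position and width for each peak, with no height, no p-value and no value per library. Replicate spread, read depth and the IgG signal are therefore not analysed here, every count below is 1 value, and no test was run.

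A Notch receptor sits in the cell membrane, and when a ligand on a neighbouring cell binds it, proteases cut it and free its intracellular domain. That domain enters the nucleus and binds the DNA-binding protein RBPJ, encoded by Rbpj, and a Mastermind-like protein, encoded by Maml1, Maml2 or Maml3, joins the pair and recruits co-activators. Without the receptor domain, RBPJ binds corepressors. In the developing retina, Notch signalling keeps progenitors from becoming neurons, and Atoh7 is a basic helix-loop-helix transcription factor of progenitors that go on to become neurons, retinal ganglion cells among them. Proteins of the Atoh7 family bind E-boxes, short DNA words that begin with CA and end with TG.

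The promoter windows of the 3 genes with the most peaks are shown because they differ in how close the peaks come to the start site. Each window is 300 bases long, from 250 bases before an annotated start to 50 bases after it, taken from RefSeq on GRCm38.p6, the assembly also called mm10, and written 5′ to 3′ in the direction of the gene. The Rbpj window is chr5:53590236-53590535 on the plus strand, the Notch1 window chr2:26503773-26504072 on the minus strand and the Maml3 window chr3:52104957-52105256 on the minus strand. In the Rbpj window capitals mark the 189 bases that lie inside a peak. The other windows touch no peak, and capitals there would mark E-boxes: Maml3 has 1 and Notch1 has none.
Rbpj: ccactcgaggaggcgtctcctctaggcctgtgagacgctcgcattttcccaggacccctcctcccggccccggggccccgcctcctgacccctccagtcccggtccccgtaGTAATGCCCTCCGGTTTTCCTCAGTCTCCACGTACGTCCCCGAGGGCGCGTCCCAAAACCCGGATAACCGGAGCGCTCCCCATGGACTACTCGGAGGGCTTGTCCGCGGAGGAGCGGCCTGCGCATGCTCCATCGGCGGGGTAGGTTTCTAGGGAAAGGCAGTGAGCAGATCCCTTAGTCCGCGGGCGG
Notch1: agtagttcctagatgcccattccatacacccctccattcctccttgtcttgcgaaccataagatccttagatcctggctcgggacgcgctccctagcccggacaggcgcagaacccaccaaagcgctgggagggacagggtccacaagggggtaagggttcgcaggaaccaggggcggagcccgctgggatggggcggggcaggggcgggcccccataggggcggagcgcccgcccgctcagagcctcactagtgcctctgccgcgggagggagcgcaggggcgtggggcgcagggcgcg
Maml3: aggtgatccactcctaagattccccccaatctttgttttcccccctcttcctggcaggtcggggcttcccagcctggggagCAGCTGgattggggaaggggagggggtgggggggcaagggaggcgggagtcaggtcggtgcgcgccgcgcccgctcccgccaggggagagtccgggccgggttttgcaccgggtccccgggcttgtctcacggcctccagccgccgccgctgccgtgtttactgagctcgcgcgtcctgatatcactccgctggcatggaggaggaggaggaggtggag

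Of the 8 genes, Rbpj alone had a peak on an annotated start site. Of all protein-coding genes with a window in the promoter table, 3.98% had a window overlapped by a peak (687 of 17274). RefSeq gives Rbpj an outer 5′ end at 53555779 and, in the promoter table, start sites at 53590346 and 53590486. The peak at chr5:53590347-53590718 began 1 bp after the first of these and covered the second. No E-box of the form CANNTG lay wholly within the part of this peak that the windows hold. The window of the first start site held E-boxes spelled CACCTG and CACTTG, beginning 212 and 124 bases before that start and so outside the peak. The RBPJ core TGGGAA, read on both strands, also lay outside the peak, beginning 149 bases before the first start site and, as TTCCCA, 65 bases before it. The letters of a short word in a window do not show that a factor binds there.

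Across all 10 windows of the 8 genes, CANNTG occurred in 5, against 69.0% of the 21045 windows of protein-coding genes. CAGCTG, which is one spelling of CANNTG, occurred in 1 of the 10, that of Maml3, against 15.7% of all windows. CAGATG, read on both strands and also a spelling of CANNTG, occurred in 1, the inner Maml2 window, against 14.4%. TGGGAA occurred in 4 windows (both of Rbpj, which overlap and share 1 of the words, the inner one of Maml2 and that of Maml3), against 24.2%. The windows of Notch1, Notch2, Notch3 and Maml1 held none of these words. With 10 windows, these shares are a description of the genes and were not tested.

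Among the receptors, peaks gathered at Notch1, a main receptor of neural progenitors. Notch1 (RefSeq gene 18128, chromosome 2, 26457902 to 26503822, minus strand, 45.9 kb) had 3 peaks, all of them inside the gene. They lay at chr2:26502177-26502403, chr2:26500664-26501072 and chr2:26487619-26487861, centred 1.53, 2.95 and 16.1 kb downstream of the start site. The first 2 were thus within the first 7% of the gene, at 3.34 and 6.43% of its length from the 5′ end, and a gap of 1.1 kb parted them. The remaining peak was at 35%. The last 65% of the gene, and the 100 kb on either side, held no peak. The nearest peak edge was 1419 bp from the start site, so that none of the 3 touched the promoter window printed above.

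Notch2 (RefSeq gene 18129, chromosome 3, 98013538 to 98150367, plus strand, 137 kb), a receptor with broad expression, had 1 peak, at chr3:98025832-98026021. It was 190 bp wide and centred 12.4 kb downstream of the start site, at 9.05% of the gene's length. Its midpoint also lay inside the long noncoding RNA gene Gm40103, 0.181 kb from an end of that gene. Peaks at Notch1 and Notch2 lay in the 5′ part of the gene, downstream of the start and up to about 35% of its length. This place was not particular to the receptors. Maml3 had peaks at 7.9, 10.3 and 22.9% of its length, beside others at 71.7 and 96.6%.

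Notch4 and Notch3 had no peak inside the gene. Notch4 (RefSeq gene 18132, chromosome 17, 34564286 to 34588543, plus strand, 24.3 kb), a receptor known from blood vessels, had 1 peak in its window, at chr17:34641193-34641494, centred 52.8 kb beyond its 3′ end. The nearest protein-coding gene to that peak was Ppt2, which encodes a lysosomal thioesterase, at 3.32 kb, and 8 protein-coding genes lay between Notch4 and the peak. The peak fell in the 100 kb windows of 12 further protein-coding genes, so the rule gave it to Notch4 and to each of them alike. Notch3 (RefSeq gene 18131, chromosome 17, 32120820 to 32166896, minus strand, 46.1 kb), a receptor known from vascular smooth muscle, had no peak within 100 kb, and the nearest was 330 kb away. Notch1 and Notch3 are almost equal in length, and 3 peaks stood against 0.

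**Figure D1:**
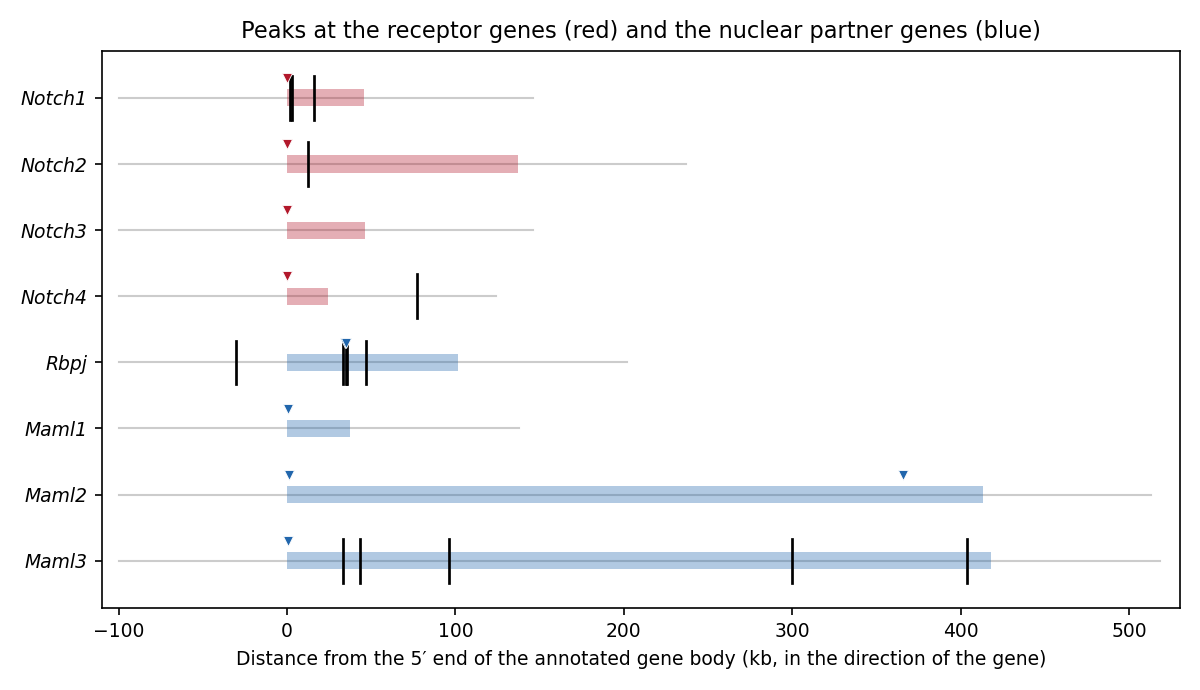
Position of each peak (black bars, not to scale in width) relative to the 5′ end of the annotated gene body, in kb in the direction of the gene. Red and blue boxes are the bodies of receptor and nuclear partner genes, thin lines the searched 100 kb on each side, and triangles the start sites of the promoter table. Notch1, Rbpj and Maml3 hold 13 of the 15 peaks, and Notch3, Maml1 and Maml2 hold none.

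Among the nuclear partners, Rbpj and Maml3 had 5 peaks each and Maml1 and Maml2 had none. Rbpj (RefSeq gene 19664, chromosome 5, 53555779 to 53657445, plus strand, 102 kb) encodes the single DNA-binding protein of the complex, to which every receptor's intracellular domain binds. Beside the peak that covers its second start site, it had one at chr5:53589086-53589434, centred 1.09 kb upstream of the first start site, and one at chr5:53591235-53591420, centred 0.842 kb downstream of the second. Gaps of 912 and 516 bp parted these 3 peaks. Another, at chr5:53602343-53602623, was centred 12.0 kb downstream of the second start site. The last, at chr5:53525487-53525963, lay outside the gene, 30.1 kb upstream of its outer 5′ end, and Rbpj was still the nearest protein-coding gene.

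**Figure D2:**
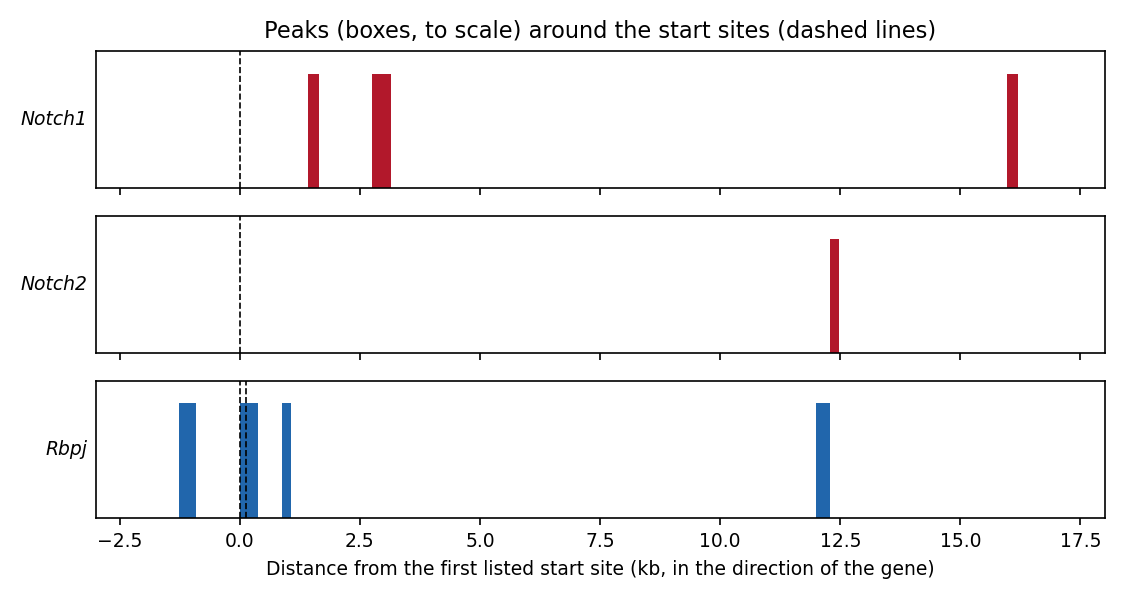
Peaks (boxes, widths to scale) at Notch1, Notch2 and Rbpj against distance from the first start site of the promoter table, in kb in the direction of the gene, with start sites as dashed lines. The Notch1 peaks begin 1419 bp downstream of the start, while 1 of the Rbpj peaks covers the second of its 2 start sites and others flank it. The Rbpj peak that lies upstream of the gene is outside the range drawn.

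Maml3 (RefSeq gene 433586, chromosome 3, 51687320 to 52105319, minus strand, 418 kb), the longest of the 8 genes, had all of its peaks inside the gene. Taken from the 5′ end they lay at chr3:52072135-52072472, chr3:52061980-52062215, chr3:52009277-52009530, chr3:51805545-51806062 and chr3:51701449-51701815. They were centred 32.7, 42.9, 95.6, 299 and 403 kb downstream of the start site, the last at 96.6% of the gene's length. Unlike those of Rbpj and Notch1, the Maml3 peaks were spread over the gene, with gaps of 9.92 to 203 kb, and the nearest edge was 32534 bp from the start site. Maml2 (RefSeq gene 270118, chromosome 9, 13296561 to 13709533, plus strand, 413 kb) is almost as long and had no peak within 100 kb, the nearest being 254 kb away. Maml1 (RefSeq gene 103806, chromosome 11, 50255634 to 50293131, minus strand, 37.5 kb), the first described member of the family, had none either, and the nearest was 125 kb away. The files give gene ends but no exons, so whether these peaks lie in exons or introns is not analysed here.

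A pair of Notch1 peaks and 3 of the Rbpj peaks had another peak within 2 kb. This made 5 of the 15 peaks (33.3%), against 279 of 3662 on the autosomes and X (7.62%). The median gap to the nearest other peak was 10.9 kb for the 15 peaks and 105 kb for all peaks. Neighbouring peaks at 1 gene are not independent, and the difference rests on 2 loci. The 2 kb distance was chosen after the values were seen, so the contrast is a description only.

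The counts were next set beside those of all protein-coding genes. At least 1 peak was found inside or within 100 kb of 3 of 4 receptor genes and 2 of 4 nuclear partner genes, or 5 of 8 together, against 34.9% of all protein-coding genes (7540 of 21631). The median number of peaks per gene was 1 for the receptors, 2.5 for the nuclear partners and 0 for all genes, with means of 1.25, 2.5 and 0.56. As few as 0.601% of genes had 5 or more peaks by this rule (130 of 21631), and Rbpj and Maml3 were among them. That share is over genes of all lengths. Genes of 400 kb or longer, the class of Maml3, had a mean of 1.0 peaks and a median of 0. Their share with 5 or more was not computed. With 3 peaks, Notch1 was among the 4.84% of genes with that many or more. A single peak, as at Notch2 and Notch4, was no rarity at 34.9%.

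Inside the gene body, Notch1, Notch2, Rbpj and Maml3, 4 of the 8 and 2 in each group, held a peak midpoint, against 7.17% of protein-coding genes (1551 of 21631). Longer genes offer more sequence, and the members were longer than most, with median lengths of 46.0 kb for receptors and 257 kb for nuclear partners, against 17.3 kb for all genes. Among genes under 50 kb, 3.68% held a peak inside (614 of 16690), and of the 4 members in that class Notch1 did while Notch3, Notch4 and Maml1 did not. The class is not matched to these members in length, since it takes in far shorter genes and they run from 24.3 to 46.1 kb. Notch2 and Rbpj, at 137 and 102 kb, fall in neither of the length classes used. Among genes of 400 kb or longer, 48.9% had a peak inside or within 100 kb (172 of 352), and of the 2 members of that size Maml3 did and Maml2 did not. At the mean density of all protein-coding genes, the searched sequence would hold 0.554 peaks for Notch1 and 0.68 for Rbpj, where 3 and 5 were listed. It would hold 1.39 for Maml3 and 1.38 for Maml2, where 5 and 0 were listed.

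**Figure D3:**
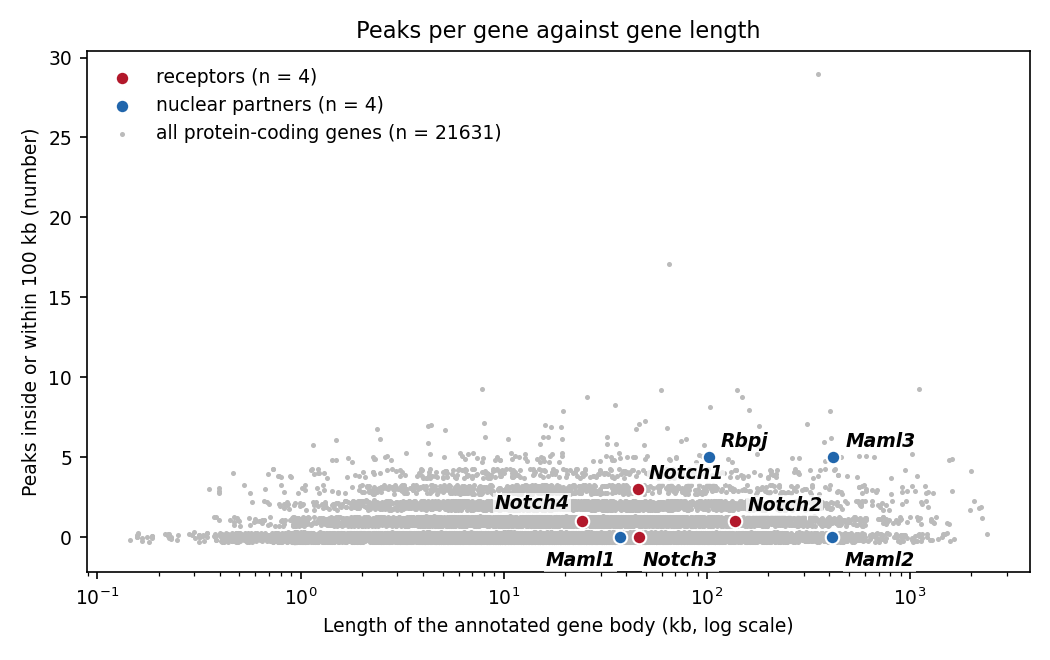
Number of peaks inside or within 100 kb of each protein-coding gene (grey points, shifted at random by up to 0.3 so that they can be seen) against the length of the gene body in kb on a log scale. Receptors are red and nuclear partners blue. Rbpj and Maml3, with 5 peaks each, lie above nearly all genes, and Maml2 lies at 0 although it is almost as long as Maml3.

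Receptors and nuclear partners were compared per length of searched sequence, because the partner genes are longer. Within 100 kb, receptors had 5 peaks in 1053.1 kb and nuclear partners 10 peaks in 1770.1 kb. This came to 0.475 peaks per 100 kb for receptors (95% exact Poisson interval 0.154 to 1.11) and 0.565 for nuclear partners (0.271 to 1.04), against 0.225 for all protein-coding genes. The ratio of receptors to nuclear partners was 0.84, with a 95% exact interval of 0.225 to 2.7. Inside the gene bodies the order of the groups turned round. There, receptors had 1.58 peaks per 100 kb (4 peaks in 253.1 kb, interval 0.431 to 4.05) and nuclear partners 0.928 (9 peaks in 970.1 kb, interval 0.424 to 1.76), a ratio of 1.7 (interval 0.383 to 6.1), against 0.191 for all protein-coding genes. The counts, 15 peaks within 100 kb and 13 inside gene bodies, leave both intervals of the ratio wide, and no difference in density between the groups is drawn from them. The intervals cover counting of peaks only, treat neighbouring peaks as independent and hold no spread between animals. The density inside the receptor genes rests on Notch1: without it the ratio inside gene bodies was 0.52, and without Maml2 it was 0.978.

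**Figure D4:**
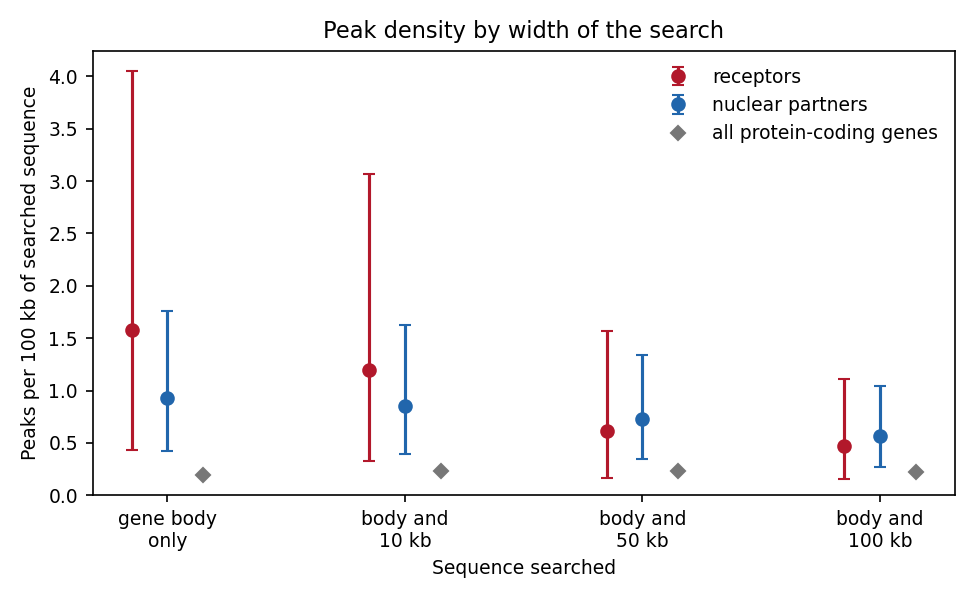
Peaks per 100 kb of searched sequence when the search covers the gene body alone or with 10, 50 or 100 kb on each side, for receptors (red), nuclear partners (blue) and all protein-coding genes (grey). Bars are 95% exact Poisson intervals. The red and blue intervals overlap at every width of the search, and receptors are the higher at the 2 narrower widths and the lower at the others.

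Genes of each group differed in their counts. Per 100 kb of searched sequence, the receptors ran from 0 at Notch3 over 0.297 at Notch2 and 0.446 at Notch4 to 1.22 at Notch1. The nuclear partners ran from 0 at Maml1 and Maml2 over 0.809 at Maml3 to 1.66 at Rbpj. Each value rests on 5 peaks or fewer, so neighbours in these orders cannot be told apart. Differences between the ends of the orders were not tested either. The neighbourhoods also differed: the searched sequence held 1 other protein-coding gene at Rbpj and at Maml3, 4 at Notch2, Notch3 and Maml2, 8 at Notch1, 9 at Maml1 and 13 at Notch4. Every one of the 10 nuclear partner peaks, and 4 of the 5 receptor peaks, had the member itself as its nearest protein-coding gene. The exception was the Notch4 peak. For the 13 peaks inside a member's body this follows from their place, at a distance of 0 from the member. Only the upstream Rbpj peak and the Notch4 peak could have come out otherwise.

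Peaks at these genes were mostly narrow. Widths at the receptor genes were 190, 227, 243, 302 and 409 bp, with a median of 243 bp. At the nuclear partner genes they ran from 186 to 518 bp with a median of 343.5 bp. The median of all 3668 peaks was 381 bp, with quartiles of 269 and 486 bp. Of the 15 peaks, 12 were narrower than 381 bp, 4 of 5 at receptors and 8 of 10 at nuclear partners. The 3 at or above it were the middle Notch1 peak (409 bp), the outlying upstream peak of Rbpj (477 bp) and the Maml3 peak at 71.7% of the gene (518 bp). The peak that covers the second Rbpj start site was 372 bp wide, and the narrowest of the 15, 186 bp, was the next one downstream of it. Width is not a measure of how much Atoh7 was bound.

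**Figure D5:**
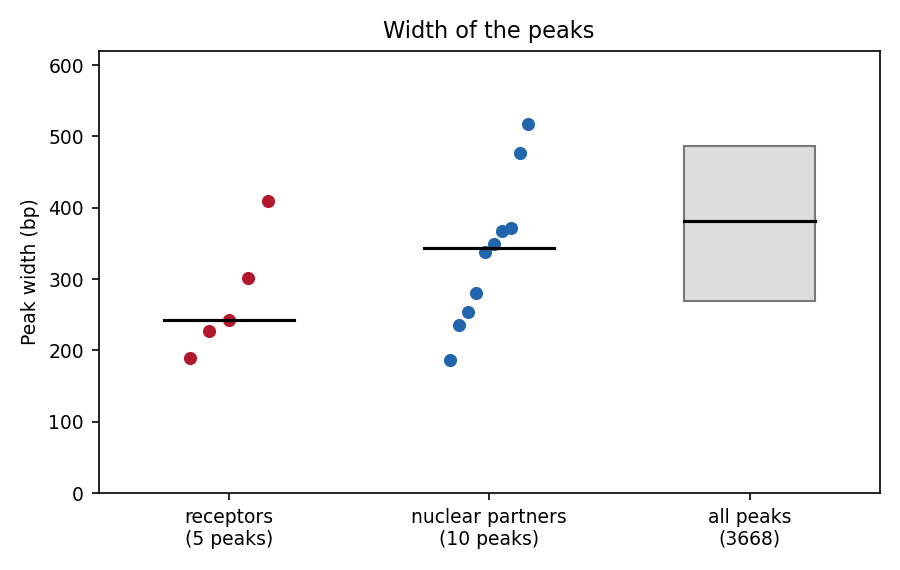
Width in bp of each peak at receptor genes (red) and nuclear partner genes (blue), with the median as a black line, beside the quartiles (box) and median of all 3668 peaks. The receptor median is 243 bp and the nuclear partner median 343.5 bp, both under the 381 bp of all peaks, and the groups overlap.

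Other genes of the Notch pathway were counted by the same rule. All 5 ligand genes (Dll1, Dll3, Dll4, Jag1 and Jag2), whose products bind the receptors, had a peak inside or within 100 kb, with a median of 2 peaks per gene. Of 7 target and effector genes, 5 had one, with a median of 1, among them Hes1 and Hes5, repressors switched on by the complex, with 1 peak each at 45.0 and 2.09 kb. Of 11 modifier genes, which glycosylate, sort or ubiquitinate receptors and ligands, 7 had one (median 1). Of 8 protease genes 4 had one (median 0.5), among them Psen2 and Ncstn of the gamma-secretase complex, with 2 and 3 peaks, while Adam10, which makes the first cut after ligand binding, had none. Of 9 genes for coregulators and the paralog of RBPJ, 3 had one (median 0). In that list Kat2b, a co-activator acetyltransferase, had 3 peaks, 2 of them inside the gene. Rbpjl, the paralog, and Ep300, the acetyltransferase that Mastermind-like proteins recruit, had none, with the nearest peaks 264 and 151 kb away. The same share over all protein-coding genes is the 34.9% given above, and many of these windows also hold other genes. Fewer genes were themselves the nearest protein-coding gene of a peak, except among the ligands. These were 5 ligand, 4 target and effector, 2 modifier, 2 protease and 1 coregulator genes. The share of all protein-coding genes that are nearest to a peak was not computed, and the 34.9% does not apply here. No list is therefore called rich or poor in such genes. Psen2 and Ncstn were each the nearest gene of 1 peak.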

How the data were processed

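The authors deposited 1 list of peaks with chromosome, start, end and width in bp, per the file headers. Positions were read as counted from 1, because the widths of the member peaks equal end minus start plus 1. The submitters' processing notes name the mm10 build, MACS2 2.2.7.1, Bowtie2 2.3.5, Picard 2.0.1, SAMtools and bedtools, with no settings. Not given in the sources used here is how the list was filtered, or whether replicate 2 or IgG entered it. All peak names begin with Atoh7_R1. Depth per library is unknown.

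Peaks on chromosomes 1 to 19 and X were counted for each of 21631 protein-coding RefSeq genes of GRCm38.p6. All 8 members matched by symbol, and their strands and start sites came from the RefSeq promoter table. Words were searched on both strands. No test was run. The members and gene lists were chosen with earlier results of these data known, the length classes and the 2 kb spacing after the values were seen, and all 8 members and the nearest gene of each peak were to be named. Counts were described with 95% exact Poisson intervals, and the ratio with an exact conditional binomial interval. Alternatives were distances of 50 and 10 kb or the gene body alone, any overlap of 1 bp, the nearest protein-coding gene, the wider 50% of peaks, and leaving out each gene. A further gene of the coregulator list is not reported here. The counting was tested on simulated peaks. Figures were drawn with matplotlib 3.10.9, and values computed with scipy 1.17.1, pandas 2.3.3 and numpy 2.4.6 under Python 3.11.15.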

Additional observations from a re-analysis of the deposited data

How the results depend on the processing

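Of 72 alternative values, 57 kept their direction, stayed within 1.5 times the count, or stayed within the interval or spread. Receptor genes with a peak fell from 3 to 2 with 50 kb, 10 kb, the gene body alone and nearest genes. These values are among the 57, and nuclear partner genes with a peak stayed at 2. The ratio of receptor to nuclear partner density changed direction under several of the alternatives. It was 1.4 with 10 kb, 1.7 inside the gene body and 1.25 for nearest genes, against 0.84 as reported. Leaving out 1 gene at a time gave ratios from 0.439 (without Notch1) to 1.39 (without Rbpj), and passed 1 also without Notch3 (1.1) and without Maml3 (1.09). Receptor density was 1.2 per 100 kb with 10 kb and 1.58 inside the body, where less sequence is searched, and 0.248 to 0.62 without 1 gene. Nuclear partner density was 0.34 to 0.864 without 1 gene. Inside the body, the ratio without 1 gene ran from 0.52 (without Notch1) to 2.78, with 0.978 without Maml2, an alternative added with the data in view. The wider 50% of peaks left 1 receptor peak at 1 gene and 2 nuclear partner peaks, or 0.095 and 0.113 per 100 kb. Counting any overlap changed no value. No paired analysis was possible because the list holds no value per library. Precision is limited by 15 peaks, and read depth is unknown.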

Other observations

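The peak names carry running numbers that rise along each chromosome up to 7185, and 51.1% of these numbers are present in the list. At Rbpj all 5 numbers spanned by its peaks are present. At Notch1, 3 of the 4 spanned are present, and at Maml3, 5 of 9, so that 1 and 4 absent numbers belong between peaks inside those genes. Each span ends at listed peaks, whose numbers are present by definition, so these shares cannot be set against the 51.1%. Between the peaks on either side of Notch3 no number is absent, while 2 are absent around Maml1 and 3 around Maml2, anywhere between the flanking peaks. By the same count, between the nearest listed peaks outside the gene body, 4 are absent around Rbpj, 3 around Notch1 and 9 around Maml3. Around Notch2 and Notch4, 6 and 2 are absent. What the absent numbers stood for, and why they are absent, was not tested.

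Promoter windows overlapped by any peak of the list, 764 windows of 687 genes, held CAGCTG in 27.2%, against 15.7% of all windows, and CANNTG in 66.2%, against 69.0%. Their median GC content was 63.2%, against 56.7% of all windows. The part of base composition in this was not tested. The Rbpj windows, with 64.7 and 67.0% GC, held no CAGCTG.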
